A study of Homo sapiens with 12 samples.

Results

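Gene expression at baseline was compared between 2 human lung adenocarcinoma (LUAD) cell lines, A549 and H1792. The comparison used the 3 A549 and the 3 H1792 samples that had been given DMSO, the solvent control, which are 6 of the 12 RNA-seq samples of the study. The other 6 samples had been given the MDM2 inhibitor RG7112 and were not used. The study chose both lines because they carry an amplified MDM2 gene and differ in p53, which the series description and most of the study's text give as WT in A549 and mutant in H1792, and other passages the other way round.

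The A549 cells and the H1792 cells of these samples had been in DMSO for 48 h. The labels state that both lines were kept in RPMI-1640 with fetal bovine serum, whereas the methods of the study give DMEM for A549. If the methods are right, medium and line cannot be told apart. Each group is 1 established line, so every difference below separates these lines and not p53 WT from p53 mutant tumors. The replicates are numbered in the labels with no word on separate cultures, so the p-values measure the spread between these samples.

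A549 is a much used model of alveolar-type LUAD and is known to carry altered KEAP1, STK11 and SMARCA4 genes. Carcinoma lines are commonly placed between an epithelial state, with keratins and cell junctions, and a mesenchymal state, with vimentin, N-cadherin and matrix proteins. p53 is a transcription factor that MDM2 marks for destruction. NRF2 is a transcription factor for detoxifying enzymes that KEAP1 holds down.

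The libraries held 2610822 to 5462657 counts, and the lines overlapped in depth (two-sided exact permutation test, p = 0.7, where 3 samples against 3 cannot go below 0.1). Pearson's r of log2 CPM (counts scaled to a common library size) across genes was 0.910 to 0.953 within A549, 0.935 to 0.946 within H1792 and 0.651 to 0.720 between the lines. The first principal component held 77.5% of the variance and parted the lines. A549 replicate 3 stood apart from the other A549 samples, and for several results that depend on it, its value or the result without it is given. Many genes that every cell uses had few counts in both lines, such as HSP90B1 (0.26 against 0.21 CPM in A549 against H1792) and EEF1A1 (12.5 against 10.1 CPM). A row may therefore hold only some of a gene's transcripts, and a value of 0 says that the gene is listed at 0, not that it is silent.

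Of 20595 genes in the table, 10330 had enough counts to be tested. A gene is called a DEG here where edgeR's quasi-likelihood test gave an adjusted p (Benjamini-Hochberg) under 0.05 and the absolute log2 fold change was over 1, and a positive log2 fold change means a higher level in A549. There were 3665 DEGs (35.5% of the tested genes), 2131 of them higher in A549 (20.6%) and 1534 higher in H1792 (14.8%), so that 58.1% were higher in A549. Scaled by library size only, in place of TMM, 68.8% of 3724 DEGs were higher in A549, and the median log2 fold change rose from 0.08 to 0.29. Corrected for the GC content of transcripts, 53.5% of 3660 DEGs were higher in A549 (1959 against 1701), and the median was -0.03. The size of the excess in A549 thus depends on the scaling. The DEGs of A549 had a median absolute log2 fold change of 2.17 and those of H1792 of 1.65. A log2 fold change over 4 was found for 513 DEGs of A549 and 197 of H1792. The CPM values of the lines did not overlap for 6329 tested genes (61.3%). The counts of each list below stand beside these shares, and a list with a share near 35.5% is not set apart by its count.

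**Figure D1:**
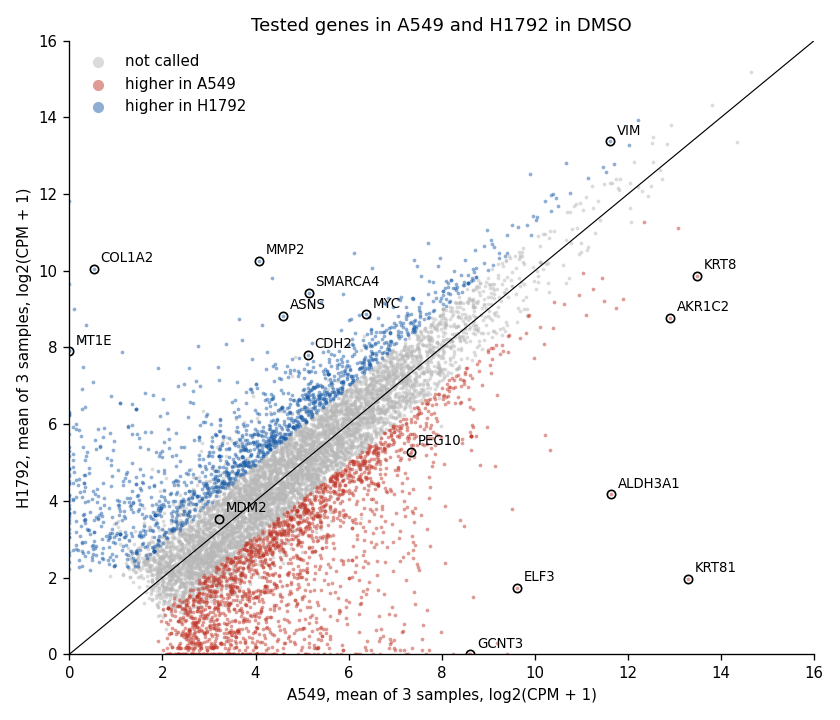
Mean log2(CPM + 1) of the 3 A549 samples (x axis) and of the 3 H1792 samples (y axis) for the tested genes, with DEGs coloured by the line in which they were higher and the diagonal marking equal levels. MDM2 lies near the diagonal, COL1A2 and MT1E lie at the left edge, and GCNT3 lies at the bottom edge.

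PEG10, an imprinted gene derived from a retrotransposon, was higher in A549, and the mesenchymal genes VIM and CDH2 were higher in H1792. PEG10 (ENSG00000242265, chromosome 7, 94656325 to 94669695 on GRCh38) had 179, 216 and 86.9 CPM in A549 replicates 1 to 3 and 48, 38.1 and 26.6 CPM in H1792. Every A549 sample lay above every H1792 sample, although A549 replicate 3 was far below the other A549 samples. The means were 161 ± 66.5 and 37.6 ± 10.7 CPM (SD, n = 3 each), a log2 fold change of 2.09 (SE, the standard error, 0.37, adjusted p = 0.0039). PEG10 overlaps SGCE, a gene on the opposite strand with 89.2 against 82.1 CPM.

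VIM (ENSG00000026025, chromosome 10, 17228259 to 17237593), which encodes the intermediate filament vimentin, had 3014, 3242 and 3114 CPM in A549 and 10908, 10392 and 10611 CPM in H1792. The lines did not overlap, and the gene was among the most abundant in both. Its log2 fold change was -1.77 (SE 0.08, adjusted p = 1.40e-05). CDH2 (ENSG00000170558, chromosome 18, 27950966 to 28177446), the gene of N-cadherin, had 16.2, 44.5 and 40.7 CPM in A549 and 236, 224 and 209 CPM in H1792. The H1792 samples were close together and all above A549, in which replicate 1 was the lowest. The log2 fold change was -2.70 (SE 0.34, adjusted p = 0.000925).

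MDM2 (ENSG00000135679, chromosome 12, 68808176 to 68850686) had 3.06, 9.44 and 12.3 CPM in A549 and 6, 11.1 and 14.6 CPM in H1792, and the lines overlapped. The log2 fold change was -0.33 (SE 0.55, adjusted p = 0.643), and its 95% interval ran from -1.64 to 0.98, which is wide enough to hold a difference past the threshold in favour of H1792. In the exact permutation test of log2(CPM + 1) for the 4 markers, PEG10, VIM and CDH2 each reached p = 0.1, the smallest value this design allows, and MDM2 gave p = 0.6. Of 20 tested genes around MDM2 at 12q14 to 12q15, 17 were not DEGs. GRIP1 (7.57 against 0.722 CPM in A549 against H1792) and LEMD3 (4.27 against 0.777) were higher in A549, and LLPH (52.4 against 120.4) was higher in H1792. The LEMD3 call was lost without A549 replicate 1 or 3 or without H1792 replicate 1 or 2, with a log2 fold change of 1.89 without H1792 replicate 2 against 2.68 in all samples and 3.81 without H1792 replicate 3. That of GRIP1 was 3.14, and 4.25 without H1792 replicate 2. CDK4, the cell cycle kinase at 12q14, had 243 against 408 CPM and was not a DEG.

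MDM4, which binds p53 and restrains it, had 7.35, 8.94 and 14.7 CPM in A549 and 32, 28.5 and 26.2 CPM in H1792 and was higher in H1792 (log2 fold change -1.48, SE 0.30, adjusted p = 0.0062). CDKN1A, the p21 cell cycle inhibitor and a p53 target, had 44.1, 42 and 23 CPM in A549 and 5.66, 2.36 and 13.7 CPM in H1792. It was higher in A549 by 2.39 on the log2 scale (SE 0.61, adjusted p = 0.0162), but A549 replicate 1, A549 replicate 2 and H1792 replicate 1 were each needed for the call. Without them in turn the adjusted p was 0.0512, 0.0512 and 0.0577. Without H1792 replicate 3 the log2 fold change was 3.20. CDKN2A, which encodes p16 and ARF, was listed at 0 in all A549 samples and at 0.666, 0 and 0.416 CPM in H1792, and was not tested. MMP9 had 0.613, 0.843 and 1.18 CPM in A549 and was listed at 0 in H1792, also too few counts for a test. MMP12 and SNAI1 were not analysed here.

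Of 26 tested p53 target genes, 18 were higher in A549 and 2 in H1792, with a median log2 fold change of 1.73 against 0.08 over all tested genes. Another 7 of 33 measured members were not tested. TP53I3, a quinone reductase, had 306, 349 and 374 CPM in A549 and 39.6, 51.8 and 52.8 CPM in H1792 (log2 fold change 2.83, SE 0.15). PHLDA3, an inhibitor of AKT, had 95, 87.7 and 102 CPM in A549 and 11, 6.43 and 9.15 CPM in H1792 (log2 fold change 3.44, SE 0.23). Both genes lay apart between the lines by several times the spread of the replicates. GDF15, a stress cytokine, was higher in A549 (527 ± 28.2 against 186 ± 4.25 CPM), as were the death genes BAX (509.6 against 244 CPM), FAS (19.3 against 4.21) and BBC3 (24.9 against 7.69). SPATA18 and EDA2R were listed at 0 in all H1792 samples and had 14 and 12.1 CPM in A549. Such members passed the filter through A549 alone and had to differ. CD82 (13.2 against 28.8 CPM), a membrane tetraspanin, and PLK3 (8.85 against 19.7), a stress kinase, were the listed targets higher in H1792. Both calls were lost without A549 replicate 1, that of PLK3 also without A549 replicate 2 and without H1792 replicate 1 or 2. GADD45A, often counted as a p53 target, was placed in the YAP and TEAD list only. It was higher in H1792 (14.5 against 52.2 CPM) and is not in the counts above. TNFRSF10B (64.4 against 54.5 CPM), XPC (28 against 8.43) and ZMAT3 (4.46 against 2.62) were among 6 targets that were not DEGs, which also include MDM2.

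**Figure D2:**
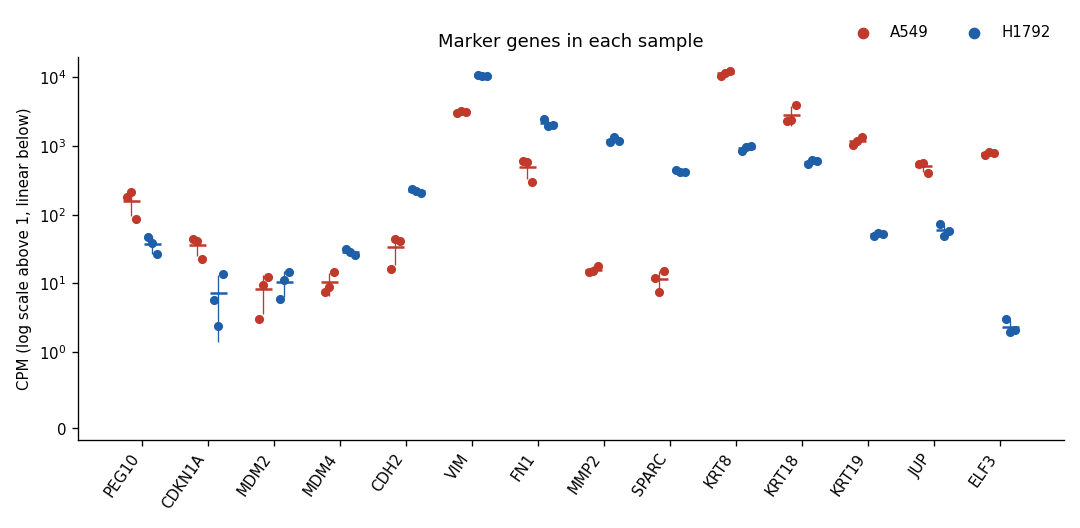
CPM of 14 marker genes in each of the 6 samples on a log scale that is linear below 1, with horizontal bars for the mean and vertical bars for the SD (n = 3). PEG10, CDKN1A, KRT8, KRT18, KRT19, JUP and ELF3 lay higher in A549, CDH2, VIM, FN1, MMP2, SPARC and MDM4 lay higher in H1792, and the samples of the lines overlapped for MDM2.

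The genes with the largest fitted fold differences were mostly listed at 0 in 1 of the lines. No count was found in H1792 for 149 of the 2131 DEGs of A549, and none in A549 for 42 of the 1534 DEGs of H1792. For such genes the fold is a lower bound, set against the mean over the lower line's libraries of the CPM that 3 counts have (0.506 to 0.919 CPM in the A549 libraries and 0.643 to 1.25 CPM in those of H1792). Floors and counting intervals cover counting error only. GCNT3, an enzyme that branches mucin sugars, had 379, 373 and 416 CPM in A549, at least 404-fold higher. AGR2, a protein disulfide isomerase of mucus-secreting cells, had 312, 292 and 295 CPM, at least 311-fold higher. Both genes belong to mucus production, and both were close to constant over the A549 samples.

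CNTN1, a neuronal adhesion molecule, was at least 210.4-fold higher in A549, the cancer-testis antigen XAGE1B at least 161-fold, the prion protein gene PRNP at least 105-fold, the aldo-keto reductase AKR1B10 at least 94.9-fold and GPRIN2 at least 72.8-fold. CPLX2, a regulator of synaptic vesicle release, had 579.8, 609 and 549.9 CPM in A549 and 2 counts in H1792, both in replicate 1, a ratio of 2919.9 (95% exact Poisson interval 808 to 24111). Its fitted log2 fold change was 11.29, and 14.21 and 10.48 without H1792 replicate 1 and 2. KRT81, a hair keratin, had 8684, 9694 and 11581 CPM in A549 and 5.33, 1.29 and 2.08 CPM in H1792 (log2 fold change 11.82, SE 0.40, or 12.59 without H1792 replicate 1). KRT81 overlaps KRT86, a near relative on the opposite strand, and reads may be divided among hair keratins.

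Among rows with a gene symbol, which the genes named here must have, MT1E had the largest fitted fold towards H1792. MT1E is a metallothionein that binds zinc and copper. It had 238, 233 and 242 CPM in H1792 and was listed at 0 in A549, at least 334-fold higher. This bound is below the fitted folds of COL1A2 and PDLIM4, so the rank of MT1E rests on the fit. SPATC1L was at least 105-fold higher in H1792, LYPD6B at least 74.4-fold, the calcium channel subunit CACNA2D3 at least 48.9-fold, the cancer-testis antigen MAGEA10 at least 39.3-fold, TPRG1L at least 34.1-fold and RGS4, a brake on G-protein signalling, at least 29.5-fold. PHRF1 had 10.3, 123 and 97.3 CPM in H1792, with replicate 1 far below the others, and was at least 108-fold higher. The collagen gene COL1A2 had 0.306, 1.01 and 0 CPM in A549 and 1073, 1031 and 1059 CPM in H1792, a log2 fold change of -10.91, or -12.59 without A549 replicate 2, which held 6 of the 7 A549 counts. PDLIM4, an actin-associated LIM protein, had 3 counts in A549 and 289.8 ± 18.3 CPM in H1792, a ratio of 1296 (95% exact Poisson interval 444 to 6286). Its log2 fold change was -10.15, and -11.01 without A549 replicate 3. PRNP and PHRF1 are expressed in most tissues, and for them the caution on values of 0 applies in particular.

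**Figure D3:**
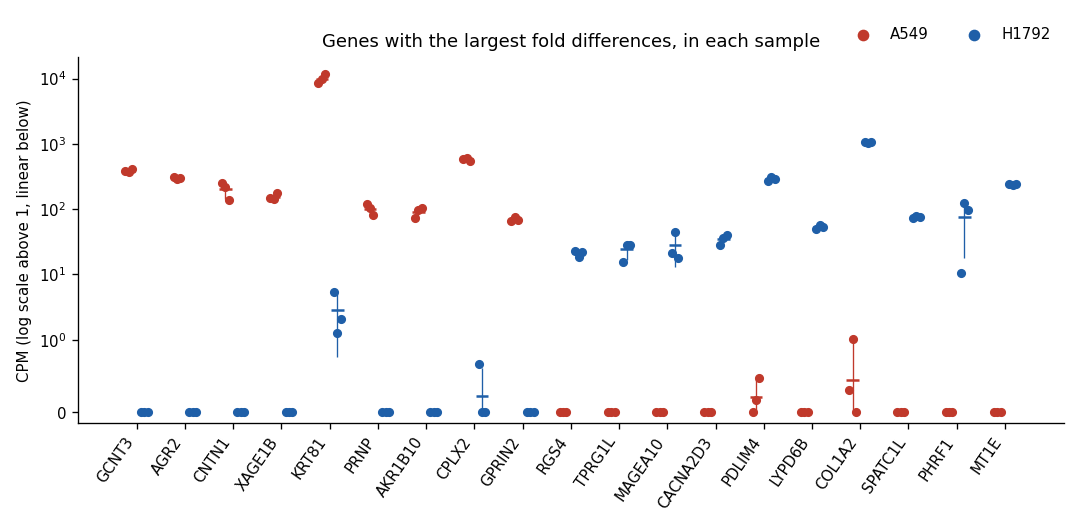
CPM of the 19 genes named for the largest fold differences in each of the 6 samples, on a log scale that is linear below 1, with bars for the mean and the SD (n = 3). Genes higher in A549 are on the left and genes higher in H1792 on the right, and 15 of the 19 genes were listed at 0 in every sample of the lower line.

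By difference in mean CPM among the DEGs, the leading genes of A549 were KRT8, KRT81, AKR1C2, MT-CO1 and ALDH3A1, and those of H1792 were RPL13, VIM, RACK1, HMGA1 and EIF3C. They comprise keratins, detoxifying enzymes and a mitochondrial subunit on the A549 side, and on the H1792 side a ribosomal protein, a ribosome-bound scaffold, an initiation factor subunit, a chromatin protein and vimentin. RPL13 had 4739 ± 826 CPM in A549 and 15709 ± 1164 CPM in H1792, RACK1 4159 ± 209 and 9954 ± 161, and EIF3C 954 ± 29.1 and 5867 ± 54.9. EIF3C has a near-identical copy, EIF3CL, so its value is uncertain. HMGA1, which bends DNA, had 1616 ± 104 CPM in A549 and 7171 ± 364 CPM in H1792. All 10 genes had adjusted p-values of 0.000745 or lower.

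Epithelial genes were higher in A549. Of 22 tested genes of junctions and keratins, 18 were higher in A549 and 0 in H1792, with a median log2 fold change of 3.35. Fewer cells of a type and less RNA per cell cannot be told apart in such bulk samples. The other 27 measured members had too few counts, so the tested genes are those detected well in at least 1 line. A member that passed the filter through A549 alone, such as DSP or CLDN2 below, had to differ. ELF3, an epithelial transcription factor, had 739, 828 and 801 CPM in A549 and 3, 1.93 and 2.08 CPM in H1792 (log2 fold change 8.41, SE 0.17, adjusted p = 2.55e-06). KRT8 had 10370.1, 11702 and 12182 CPM in A549 and 848, 963 and 995 CPM in H1792. Its partner keratin KRT18 had 2869 ± 919 against 589 ± 42.3 CPM and KRT19 1194 ± 155 against 51.7 ± 3.28 CPM. Per kb of transcript, KRT8 had 6768 CPM in A549 and VIM 2379.8 CPM, whereas in H1792 KRT8 had 554 CPM and VIM 8104 CPM, so the order of these filament genes was opposite in the lines. The length is the median over annotated transcripts.

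Junction genes followed the same direction. JUP, the plakoglobin of desmosomes and adherens junctions, had 545, 564 and 399 CPM in A549 and 72.3, 48.6 and 57.8 CPM in H1792. DSP, desmoplakin, had 23.6 against 0.222 CPM, the claudin CLDN2 81.7 against 0.0714, SPINT2, a membrane protease inhibitor, 407 against 1.8, and the basement membrane laminin LAMA5 1272 against 39.4, all higher in A549. TJP1, the tight junction scaffold ZO-1, had 108, 79.3 and 35 CPM in A549 and 32, 29.1 and 24.1 CPM in H1792, and A549 replicate 3 lay near the H1792 samples. KRT7 (512 against 328 CPM) was not a DEG. CDH1, the gene of E-cadherin, had 18.1, 17 and 1.66 CPM in A549 and 0.999, 0.214 and 0 CPM in H1792 and fell under the count filter, with few counts in A549 replicate 3. EPCAM was near 0 in both lines (0.656 against 2.14 CPM).

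E-box sequences of the form CACCTG, which ZEB and SNAI repressors are known to bind in epithelial promoters, are shown for 4 of the A549-higher genes. The stretches were read from RefSeq promoters on GRCh38.p14 (250 bases before to 50 after each start). The motif, read on either strand, is in capitals.
ELF3, chr1:202010457-202010482, plus strand, motif 120 bases before the start: atatgcaaatCACCTGgggccaggag
JUP, chr17:41786015-41786040, minus strand, motif 54 bases before the start: actctggcccCACCTGccgagcaggt
TJP1, chr15:29969106-29969163, minus strand, motif 88 bases before the start: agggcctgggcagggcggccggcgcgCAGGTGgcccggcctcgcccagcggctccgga
DSP, chr6:7541467-7541524, plus strand, motif 178 bases before the start: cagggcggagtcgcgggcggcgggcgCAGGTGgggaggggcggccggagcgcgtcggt
The stretches of ELF3 and JUP lie in exons annotated in GENCODE v29, and those of TJP1 and DSP lie outside exons. This motif was found for 17 of 24 epithelial genes with a promoter in the table, for 5 of 33 mesenchymal genes and for 24.1% of all genes (20.6% of all promoters). Other lists lay between, with 9 of 21 serine and amino acid response genes, 8 of 28 p53 target genes and 6 of 23 NRF2 target genes. Among epithelial genes the share was the highest of these 5 lists. The motif was found for 8 of the 11 epithelial genes with a promoter that were higher in A549. The other epithelial genes with it were RAB25, LAD1, OCLN, KRT5, SPINT1, CLDN7, DSC2, DSG2 and CRB3, which were not tested. It was thus not particular to the members higher in A549. The motif was chosen after the values were seen, and a match is a description of these letters only.

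Mesenchymal genes went both ways. Of 34 tested members, 10 were higher in A549 and 11 in H1792, and the median log2 fold change was -0.48. MMP2, the gelatinase that cleaves basement membrane collagen, had 14.4, 15.2 and 18 CPM in A549 and 1141, 1358 and 1186 CPM in H1792 (log2 fold change -6.27, SE 0.14, adjusted p = 3.93e-06). SPARC, a secreted matrix protein, had 11.9, 7.59 and 14.9 CPM in A549 and 448, 418 and 423 CPM in H1792. FN1, fibronectin, had 499 ± 170.5 CPM in A549 and 2146 ± 277 CPM in H1792. POSTN (0.225 against 179 CPM), LOXL1 (0.669 against 58.5), FBN1 (13 against 61.9) and TGM2 (279.7 against 766), which build or cross-link matrix, were also higher in H1792. ZEB1, a repressor of epithelial genes, had 11.8 against 25.2 CPM and was higher in H1792, while ZEB2 (6.52 against 9.46) and TWIST1 (3.44 against 4.35) were not DEGs.

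The mesenchymal genes that were higher in A549 included the cytoskeletal genes TAGLN (60.1 against 1.34 CPM), ACTA2 (84.3 against 37.2), TPM1 (944 against 459), CALD1 (214 against 99.1) and MYL9 (26 against 10.6). S100A4, a calcium-binding protein also called fibroblast-specific protein, had 729.9 ± 168 CPM in A549 and 12.9 ± 5.55 CPM in H1792. The caveolin gene CAV1 had 336 ± 25.2 and 93.2 ± 11.4 CPM. VIM, CDH2, FN1 and ZEB1 of the same list were higher in H1792. TAGLN had a log2 fold change of 5.49, and 6.08 without H1792 replicate 1, and that of POSTN was -9.10, and -12.29 without A549 replicate 2.

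Collagens and laminins went both ways. Of 23 tested collagens and laminins, 5 were higher in A549 and 9 in H1792 (median log2 fold change -0.43). The fibrillar chains COL1A1 (5.81 ± 1.98 against 263 ± 19.8 CPM) and COL1A2, the collagen VI chains COL6A1 (26.6 against 208) and COL6A2 (15.4 against 121) and the laminin LAMA4 (2.07 against 111) were higher in H1792. The basement membrane chains COL4A1 (11.4 against 0.472 CPM), COL4A2 (171 ± 42.5 against 13.1 ± 1.19) and COL4A6 (96.7 against 31.4) were higher in A549. COL5A2, another fibrillar chain, was not tested and had 12.6, 2.02 and 12.5 CPM in A549, and it was listed at 0 in H1792. For COL4A1 the log2 fold change was 4.67, and 5.99 and 3.90 without H1792 replicate 1 and 2. The collagen IV genes COL4A1 and COL4A2 overlap at their shared promoter on opposite strands.

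Among 14 tested integrins, 5 were higher in A549 and 3 in H1792. ITGB4, the hemidesmosome subunit that binds laminin, had 205 ± 29 CPM in A549 and 8.69 ± 0.666 CPM in H1792, and ITGB1, the common beta subunit, 120.3 ± 18.7 and 9.54 ± 1.63. The subunits higher in H1792 were ITGA11 (22.2 ± 1.6 against 144 ± 12.5 CPM), a collagen receptor, ITGA5 (6.56 against 29.1), the fibronectin receptor, and ITGA4 (1.25 against 12.4). Of 15 tested matrix proteases and inhibitors, 3 were higher in A549 and 6 in H1792. ADAM12 (12.1 against 44.8 CPM), ADAM15 (359 against 1247), TIMP1 (10.5 against 78.4) and the plasminogen activator PLAT (9.35 against 269) were higher in H1792, and the shedding proteases ADAM10 (80.7 against 23.7) and ADAM17 (101 against 45.1) and the inhibitor SERPINE2 (348 against 142) in A549.

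Most tested genes of the airway and liver lists were higher in A549. Of 14 tested lung and airway lineage genes, 11 were higher in A549 and 3 in H1792, with a median log2 fold change of 3.72 (2.22 with the genes listed at 0 set to their bounds). Another 25 members had too few counts, so the tested genes are those detected well in at least 1 line. A member that passed the filter through A549 alone, such as those listed at 0 in H1792, had to differ. The mucins MUC5B (10.6 CPM) and MUC5AC (4.36 CPM) and the transcription factor GATA4 (7.61) had counts in A549 and were listed at 0 in H1792. HNF4A (8.42 against 0.222 CPM) and FOXA1 (25.1 against 8.17), pioneer and endoderm factors, were also higher in A549. In H1792 the higher members were GATA6 (4.68 against 25.3 CPM), an endoderm factor, and the surfactant lipid genes ABCA3 (12.8 against 92.6) and LPCAT1 (11.6 against 48). ABCA3 had a log2 fold change of -2.87, and -3.59 without A549 replicate 1, and its call was lost without A549 replicate 2, H1792 replicate 2 or H1792 replicate 3.

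The lung lineage markers NKX2-1, SFTPB, SFTPC and NAPSA were near 0 in both lines. The surfactant lipid genes ABCA3 and LPCAT1 of the same list were not, with 92.6 and 48 CPM in H1792. NKX2-1, the master factor of lung epithelium, was listed at 0 in all 6 samples, and SFTPB (0 against 0.21 CPM), SFTPC (0.237 against 0) and NAPSA (2.12 against 0.388) stayed under 3 CPM. Of 10 tested liver-type genes, 7 were higher in A549 and 0 in H1792 (median log2 fold change 6.86, or 3.56 with bounds). Another 26 of 36 measured members were not tested, ALB (0 against 0.111 CPM) and APOA1 (0.0789 against 0.73) among them, and most of those tested passed the filter through A549. The 7 were the fibrinogen chains FGB (16.1 CPM in A549, listed at 0 in H1792) and FGG (13 against 0.139 CPM), the retinol carrier RBP4 (13.7 CPM, listed at 0 in H1792), CP, APOH, FGL1 and the complement protein C3 (47.2 against 2.05 CPM). For FGG the log2 fold change was 6.60, and 5.87 and 8.77 without H1792 replicate 2 and 3.

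Most NRF2 target genes were higher in A549. Of 28 tested members, 18 were higher in A549 and 1 in H1792, with a median log2 fold change of 1.60. Another 6 of 34 measured members were not tested, and a member that passed the filter through A549 alone had to differ. The aldo-keto reductase AKR1C2 had 7072, 7132 and 8769 CPM in A549 and 404, 455 and 453 CPM in H1792 (log2 fold change 4.13, SE 0.13, adjusted p = 6.56e-06). The aldehyde dehydrogenase ALDH3A1 had 2983, 3429 and 3198 CPM in A549 and 17.7, 11.4 and 22 CPM in H1792 (log2 fold change 7.60, SE 0.25). Both enzymes detoxify carbonyls and were among the most abundant transcripts of A549. AKR1C2 has close relatives (AKR1C1 and AKR1C3), among which reads can be divided.

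GPX2, a glutathione peroxidase, had 146, 168 and 112 CPM in A549 and 0.333, 0 and 1.25 CPM in H1792, and so passed the filter through A549 alone. GCLC (217 against 75.9 CPM) and GCLM (79.3 ± 9.92 against 26 ± 4.69), the subunits of the first enzyme of glutathione synthesis, TXNRD1 (2445 ± 215 against 729 ± 59.2), thioredoxin reductase, and GSR (158 against 52.3) were all higher in A549. So were the exporters ABCC2 (168 against 2.1 CPM) and ABCC3 (816 against 304). NQO1 (4217 against 3162 CPM) and SLC7A11 (46.3 against 46.1), which are textbook NRF2 targets, were not DEGs. PIR (15.4 ± 5.17 against 77.4 ± 1.79 CPM) was higher in H1792. NFE2L2, the gene of NRF2 (49.3 against 48.3 CPM), and KEAP1 (204 against 227) were not DEGs.

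The core of the antioxidant response element, which NRF2 binds, is TGACNNNGC, and it is shown in capitals, read on either strand, for 4 genes that were higher in A549.
GCLM, chr1:93909446-93909474, minus strand, motif 34 bases before the start: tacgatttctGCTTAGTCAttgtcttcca
TXNRD1, chr12:104286920-104286948, plus strand, motif 102 bases before the start: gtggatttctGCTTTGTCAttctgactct
GPX2, chr14:64942849-64942877, minus strand, motif 122 bases before the start: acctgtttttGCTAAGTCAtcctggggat
EPHX1, chr1:225825250-225825310, plus strand, motif 78 bases before the start: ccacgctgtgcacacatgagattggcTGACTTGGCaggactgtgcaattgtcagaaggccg
The stretches of TXNRD1 and GPX2 lie in exons annotated in GENCODE v29, that of GCLM lies partly in an exon and that of EPHX1 outside exons. The core was found for 9 of 23 NRF2 target genes with a promoter in the table and for 16.1% of all genes (13.4% of all promoters). It was found for 5 of the 12 with a promoter that were higher in A549 (CYP4F11 is the one not shown), for PIR, which was higher in H1792, and for PGD, CBR1 and UGT1A6, which were not DEGs or not tested. The core was also found for 9 of 28 p53 target genes and 7 of 21 serine and amino acid response genes. Among epithelial and mesenchymal genes it was found for 6 of 24 and 6 of 33. A share above that of all genes was thus not particular to the NRF2 list.

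Of 24 tested genes of serine synthesis and of the amino acid response, 13 were higher in H1792 and 4 in A549, with a median log2 fold change of -1.06. ASNS, asparagine synthetase, had 6.13, 26.5 and 36.5 CPM in A549 and 424, 528 and 408 CPM in H1792 (log2 fold change -4.27, SE 0.53, adjusted p = 0.000828). PHGDH, the first enzyme of serine synthesis, had 119, 142 and 155 CPM in A549 and 572, 676 and 669 CPM in H1792. Serine hydroxymethyltransferase SHMT2, of the mitochondrial folate pathway, had 418 ± 23 and 1489 ± 9.08 CPM. The A549 samples were spread for ASNS, with replicate 1 lowest, and close together for PHGDH and SHMT2, and all lay below H1792.

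The transfer RNA synthetases SARS (12.9 ± 1.83 against 113 ± 7.31 CPM) and GARS (34.2 against 131), the transporters SLC1A5 (959.8 against 1946) and SLC1A4 (5.86 against 21.8), the folate enzymes MTHFD2 (42.6 against 85.5) and MTHFD1L (81 against 257) and the transsulfuration enzymes CBS (11.4 against 73.3) and CTH (2.99 against 38.1) were higher in H1792. The transcription factors ATF4 (20.6 against 44.2 CPM), which drives the response, and DDIT3 (11.2 against 137) were also higher in H1792. The members higher in A549 were PSAT1 (37.6 against 5.52 CPM), SLC38A2 (87.7 against 15.7), SHMT1 (75.8 against 34.3) and ATF5 (21 against 7.71). Between 1 and 2 members were called in this direction without A549 replicate 1, A549 replicate 2, H1792 replicate 2 or H1792 replicate 3. The ATF5 call was lost without any sample but A549 replicate 3, and that of SHMT1 without A549 replicate 2. If the medium differed between the lines, as the methods but not the labels state, medium and line cannot be told apart for these genes.

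ATF4 with CEBP partners is known to bind the sequence TGATGNAA, which is in capitals, read on either strand, in promoters of 4 genes that were higher in H1792.
ASNS, chr7:97872459-97872486, minus strand, motif 68 bases before the start: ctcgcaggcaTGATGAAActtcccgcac
SLC1A5, chr19:46784894-46784921, minus strand, motif 97 bases before the start: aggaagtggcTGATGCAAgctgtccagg
MTHFD1L, chr6:150866347-150866374, plus strand, motif 129 bases before the start: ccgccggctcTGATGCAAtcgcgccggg
SLC1A4, chr2:64989382-64989409, plus strand, motif 7 bases before the start: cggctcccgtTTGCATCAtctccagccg
The stretches of ASNS and MTHFD1L lie in exons annotated in GENCODE v29, and those of SLC1A5 and SLC1A4 lie partly in exons. The sequence was found for 9 of 21 members with a promoter in the table. These were 4 of the 10 with a promoter that were higher in H1792 and none of the 4 that were higher in A549. The remaining ones, ATF3, SLC3A2, SLC7A1, CHAC1 and CEBPG, were not DEGs or not tested. The sequence was thus not particular to members higher in H1792. It was found for 4.46% of all genes (3.62% of all promoters). This motif too was chosen after the values were seen.

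**Figure D4:**
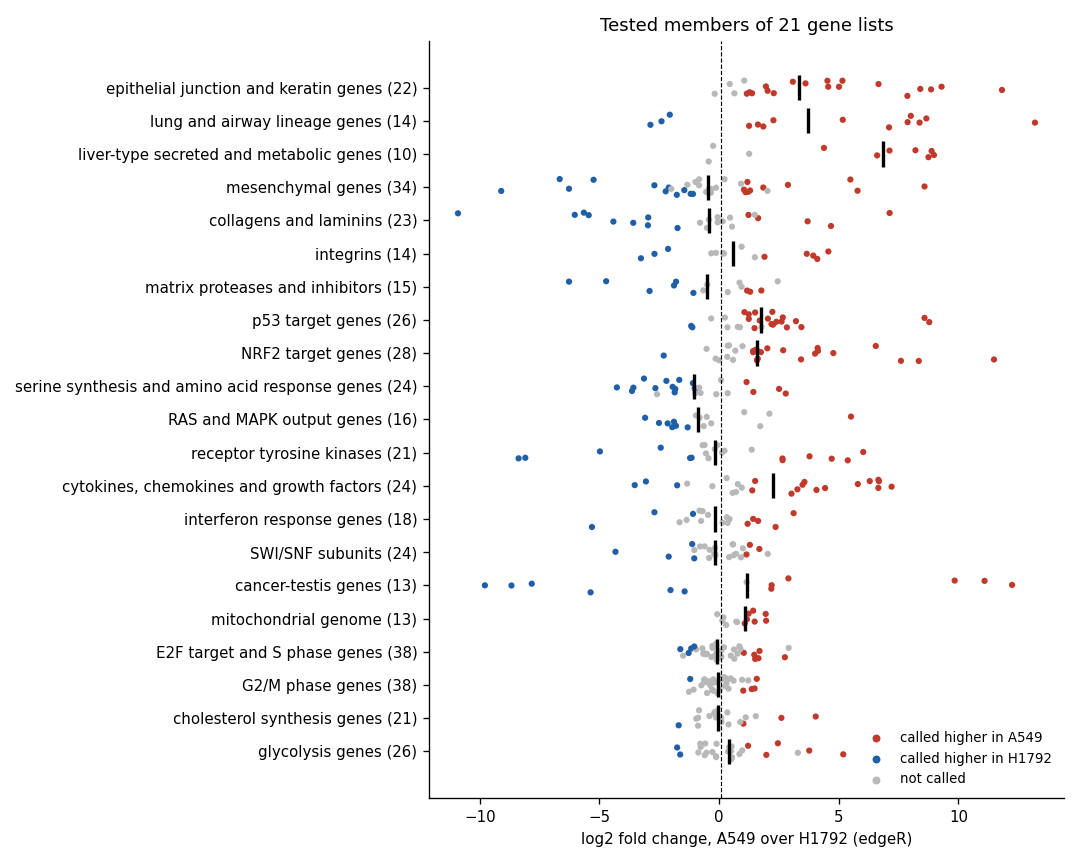
Log2 fold change of A549 over H1792 (x axis, edgeR) for the tested members of 21 gene lists, coloured by call, with the number of tested members in brackets, a black bar at the median of each list and a dashed line at the median of all tested genes. The epithelial, lung, liver, p53, NRF2 and cytokine lists have medians to the right of the dashed line, the serine and RAS lists to the left, and the cell cycle lists lie on it. Fitted values of genes listed at 0 in a line are not bounds.

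Among genes that the RAS pathway is known to induce, all that were called were higher in H1792 but for CCND1. Of 16 tested RAS and MAPK output genes, 7 were higher in H1792 and 1 in A549 (median log2 fold change -0.89). MYC had 75.7, 97.1 and 71.3 CPM in A549 and 528, 425 and 442 CPM in H1792 (log2 fold change -2.51, SE 0.16, adjusted p = 4.98e-05). The ETS factors ETV4 (88.8 ± 14 against 329 ± 8.39 CPM) and ETV1 (5.18 against 18.3), the AP-1 member FOSL1 (13.9 against 119) and the feedback inhibitors SPRY4 (20 against 77.5) and DUSP6 (17.2 against 42.7) were higher in H1792. CCND1, cyclin D1, had 118, 104 and 5.68 CPM in A549 and 1.33, 2.36 and 0.832 CPM in H1792. It was higher in A549, where replicate 3 was far below the other samples but still above H1792. Without A549 replicate 3, 5 members in place of 1 were called higher in A549.

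Receptor tyrosine kinases were divided evenly, with 6 of 21 tested genes higher in each line. MST1R (41.4 ± 4.72 against 0.642 ± 0.203 CPM), IGF1R (231 ± 16.3 against 36.5 ± 7.04), FGFR4 (20 against 1.36), DDR1 (17.5 against 0.353) and ERBB3 (5.51 against 0.801) were higher in A549. DDR2 (0.181 against 50.2 CPM), EPHB6 (0.26 against 85.6), TYRO3 (36.8 ± 2.76 against 199.8 ± 8.74), MERTK (8.77 against 19.5) and INSR (13.6 against 31.6) were higher in H1792. The collagen receptors DDR1 and DDR2 thus had opposite directions. For DDR2 the log2 fold change was -8.10, and -7.36 without A549 replicate 2, and that of EPHB6 was -8.38, and -9.38 without A549 replicate 1. ERBB2 (77.7 against 71.1 CPM), AXL (306 against 262) and FGFR1 (139 against 157) were not DEGs, and MET, with 14.4, 13.8 and 0 CPM in A549 and 0.666, 0 and 0 CPM in H1792, was not tested.

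Most tested genes of secreted factors were higher in A549. Of 24 tested cytokines, chemokines and growth factors, 14 were higher in A549 and 3 in H1792 (median log2 fold change 2.27, or 1.63 with bounds). Another 24 of 48 measured members were not tested. Some of those tested, such as IL11, CXCL1 and IGF2, passed the filter through A549 alone and had to differ. CCL2, which attracts monocytes, had 97.1 ± 14.1 CPM in A549 and 4.41 ± 1.54 CPM in H1792. IL11 (25.6 against 0.281 CPM), CXCL1 (23.5 against 0.222), CXCL8 (31.3 against 12), CSF1 (18 against 2.28), IGF2 (17.5 against 0.214) and the IGF carrier IGFBP7 (146 ± 10.1 against 15.1 ± 3.46) were higher in A549. In H1792 the higher genes were PDGFA (57.7 ± 4.43 against 665 ± 34 CPM), VEGFA (70.9 ± 7.74 against 238 ± 28.6) and CCL28 (1.28 against 10.8). For IGF2 the log2 fold change was 5.80, and 9.04 without H1792 replicate 2. Of 17 tested YAP and TEAD genes, 6 were higher in A549 and 2 in H1792, with WWC1 (209 against 48.7 CPM), MYOF (442 against 165) and TEAD1 (76.1 against 21.5) in the first group and RBMS3 (2.78 against 11.6) and GADD45A (14.5 against 52.2) in the other.

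Most SWI/SNF subunits, which remodel chromatin, were not DEGs (17 of 24), but the catalytic pair differed in opposite directions. SMARCA4, the BRG1 ATPase, had 41.4, 35.4 and 26 CPM in A549 and 656, 723 and 684 CPM in H1792 (log2 fold change -4.33, SE 0.18, adjusted p = 1.40e-05). SMARCA2, the alternative ATPase BRM, had 76, 74.9 and 68.2 CPM in A549 and 23, 22.7 and 22.5 CPM in H1792 (log2 fold change 1.68, SE 0.14, adjusted p = 0.000139). BRD9 (62 against 266 CPM), SMARCD2 (125 against 273) and BCL7C (12.7 against 25.9) were higher in H1792, and SMARCE1 (240.4 against 109) and SMARCC2 (284 against 116) in A549. The methyltransferase EZH2, of the opposing Polycomb complex, had 45.4 against 109.7 CPM and was higher in H1792.

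Of 21 tested LUAD driver genes, 4 were higher in A549 and 2 in H1792. Beside SMARCA4, SMARCA2, MYC and ERBB3, they included RB1 (5.49 against 0.392 CPM), the cell cycle repressor, which had under 0.5 CPM in H1792. STK11 (61.8 against 87.6 CPM), EGFR (9.1 against 3.55) and BRAF (7.27 against 10.8) were not DEGs. Without A549 replicate 3, 7 driver genes in place of 4 were called higher in A549.

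Many but not all members of the cancer-testis list are normally restricted to the germ line. For the most part they were listed at or near 0 in both lines, and 26 of 39 measured members were not tested. Among those that passed the filter, 6 of 13 tested genes were higher in A549 and 6 in H1792, and a member that passed through the line where it is high had to differ. MAGED1, MAGED4, the XAGE1 copies XAGE1A and XAGE1B, PRAME (194 ± 3.25 against 42.8 ± 2.72 CPM) and IGF2BP1 (95.7 against 12.7) were on the A549 side. The MAGE-A members MAGEA12 (1.39 ± 0.39 against 59.3 ± 8.05 CPM), MAGEA6 (35.7 against 96.9), MAGEA3 (5.13 against 21.4), MAGEA10 and MAGEA2 and CTAG2 (0 against 7.26) were on the H1792 side. XAGE1 and MAGE-A genes are near-identical copies, so the division of reads within each family is uncertain, while the direction was the same for all called copies of a family. Of 14 tested imprinted genes, 6 were higher in A549 and 1 in H1792, with IGF2, SNURF (10.9 against 0.365 CPM) and L3MBTL1 (12.5 against 2.7) beside PEG10 in A549. IGF2R (73.3 against 174 CPM), which clears IGF2, was higher in H1792, a call that was kept without A549 replicate 3 (log2 fold change -1.92 against -1.24) and lost without any of the other 5 samples. Of 14 tested HOX genes, 5 were higher in A549 and 0 in H1792. They included HOXD8 (5.13 CPM in A549, listed at 0 in H1792) and HOXC4 (10.5 against 0.492), and without A549 replicate 2 or 3 in turn 2 and 3 of the 5 were called.

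Most cell cycle genes were not DEGs. Of 38 tested E2F target and S phase genes, 28 were not DEGs, 6 were higher in A549 and 4 in H1792, and the median log2 fold change was -0.09. Of 38 tested G2/M genes, 33 were not DEGs, with a median of -0.03. These shares of called genes lie below the 35.5% of all tested genes. MKI67 (409 against 331 CPM), FOXM1 (213 against 242), PRC1 (185 against 182) and BUB1 (72.4 against 71.2) were not DEGs. BRCA1 (67.7 ± 6.19 against 23.8 ± 0.301 CPM), PCNA (12.2 against 3.79), CDC25B (1102 ± 44.9 against 370.0 ± 13.7) and RACGAP1 (130.0 against 50.6) were higher in A549, and MCM7 (509 against 1045), CDT1 (20.1 against 45.4) and CDC20 (30.8 against 71.5) in H1792. The CDC20 and MCM7 calls were lost without A549 replicate 1, and that of MCM7 also without A549 replicate 2.

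Interferon response genes were mixed, with 5 of 18 tested genes higher in A549 and 3 in H1792. ISG15 (17 ± 2.74 against 111 ± 21.2 CPM), a secreted ubiquitin-like effector, was higher in H1792. IFI35 (79.3 ± 7.3 against 29.5 ± 0.488 CPM) and ISG20 (11.4 against 2.21) were higher in A549. IRF1 (65.1 against 89.6 CPM), MX1 (2.41 against 7.35) and IFITM3 (17.8 against 16.7) were not DEGs. In antigen presentation, the immunoproteasome subunit PSMB10 (25.6 against 91 CPM), the NK ligand PVR (186 ± 92.3 against 938 ± 32.6), TAP2 (1.38 against 4.61) and NLRC5 (17.8 against 46) were higher in H1792. HLA-C (4.34 against 0.428 CPM) was called higher in A549, with a log2 fold change of 2.94, and 7.06 without H1792 replicate 2, and the call was lost without any of the other 5 samples. The TAP2 call was lost without A549 replicate 2.

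Several transcripts of the mitochondrial genome were higher in A549. Their summed level was 20805 to 25656 CPM in A549 and 8313 to 11949 CPM in H1792, and the samples of the lines did not overlap (two-sided exact permutation test, p = 0.1, the smallest possible). Of 13 genes, 7 were DEGs, all higher in A549 (median log2 fold change 1.07), and 4 were called without A549 replicate 1 or without H1792 replicate 3. The MT-CO3 call was among those lost. MT-CO1, a cytochrome oxidase subunit, had 10604, 9210.3 and 6126 CPM in A549 and 2349.9, 2555 and 1746 CPM in H1792, and MT-ND1, of complex I, 1579 ± 183 and 563 ± 80.2 CPM. MT-CO2 (2499.8 against 2040.1 CPM) and MT-ATP6 (1152 against 1048) were not DEGs. The part of the poly-A selection in this sum was not tested.

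Of 21 tested cholesterol synthesis genes, 17 were not DEGs. Of 26 tested glycolysis genes, 19 were not DEGs, among them GAPDH (25578 against 36940.3 CPM) and PKM (296 against 448). SLC2A3 (9.72 against 1.8 CPM) and EGLN3 (4.75 against 0.111), both induced by hypoxia, were higher in A549. For EGLN3 the log2 fold change was 5.19, and 7.30 and 4.47 without H1792 replicate 1 and 2. Among 13 aldehyde dehydrogenases, ALDH3B1 (82 against 1.97 CPM) and ALDH9A1 (77.7 against 30.5) were higher in A549 beside ALDH3A1, and ALDH1A3 (7.79 against 22.7) in H1792. Of 14 tested unfolded protein response genes, 4 were higher in H1792, XBP1 (116 ± 4.89 against 361 ± 13.6 CPM), PDIA3 (481 against 1177), HERPUD1 (116 against 247) and HYOU1 (15.2 against 130.3), and 1 in A549 (DNAJB9, 8.05 against 2.14). The DNAJB9 call was lost without A549 replicate 1 or 2 or H1792 replicate 1 or 2.

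Markers of other cell types were examined as a check of the cultures. Of 15 immune cell markers, 8 were listed at 0 in all 6 samples, including CD3D, CD3E and LYZ, and the sum of the list was 37.9 to 61.3 CPM in A549 and 9.43 to 17.9 CPM in H1792, of which CD14 (21.4 against 0.829 CPM) and CD68 (21.3 against 13.5) made up most. Among 10 endothelial markers, VWF and KDR were listed at 0 and EGFL7 (136 against 133 CPM) was the only one tested and not a DEG. The 10 fibroblast markers summed to 18.0 to 22.9 CPM in A549 and 1480 to 1562 CPM in H1792. This sum moved with the collagen and matrix genes above and in H1792 consists of them for the most part (COL1A2, COL1A1 and POSTN), whereas PDGFRB (0.191 against 0.563 CPM), DCN (0.158 against 0.527) and LUM (0.0789 against 0) were near 0 in both lines, and THY1 was at least 12.7-fold higher in A549. Neuroendocrine markers summed to 1600 to 1943 CPM in A549 and 1758 to 1971 CPM in H1792, nearly all of it UCHL1 (1615 against 1779 CPM), which was not a DEG. The other tested members were all DEGs: ENO2 (95.4 against 41.3 CPM) and DLL3 (11.8 against 2.85) were higher in A549 and SYT1 (7.93 against 20) in H1792, while CHGA (0.734 against 0 CPM) and SYP (1.23 against 0.25) were near 0. The ENO2 call was lost without A549 replicate 3, which had 126 CPM against 74.7 and 85.3 in replicates 1 and 2. That of DLL3 was lost without A549 replicate 1 or 3 or H1792 replicate 1 or 2. The SYT1 call was lost without A549 replicate 2 or H1792 replicate 1 or 2. For DLL3 the log2 fold change was 2.12, and 3.08 without H1792 replicate 3.

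DEGs were spread unevenly over the chromosomes. On chromosome 17, 209 of 640 tested genes were higher in A549 (32.7%) and 42 in H1792 (6.56%), with a median log2 fold change of 0.63. Chromosome 8 (90 and 17 of 326, median 0.52) and chromosome 9 (83 and 22 of 351, median 0.24) were shifted the same way. Chromosome 21 (10 and 25 of 94, median -0.31) and chromosome 1 (126 and 183 of 916, median -0.20) were shifted towards H1792.

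Over windows of 25 neighbouring tested genes, the central 90% of median log2 fold changes lay between -0.71 and 0.91. The window furthest towards H1792 was chr7:816615-2844324 (GRCh38), from SUN1 to GNA12, with 19 of 25 genes higher in H1792, 2 in A549 and a median of -1.72. It includes MAD1L1, MAFK and EIF3B. A window at chr11:66638617-67612554, from RBM4 to NDUFV1, had 16 of 25 higher in H1792 and a median of -1.41. The window furthest towards A549 was chr12:103988984-109477544, from GLT8D2 to KCTD10, with 13 of 25 genes higher in A549, 2 in H1792 and a median of 1.75. On chromosome 17 the windows furthest towards A549 ran from TMEM98 to MLLT6 (16 higher in A549, none in H1792, median 1.65), from TNFAIP1 to TP53I13 (15 and none, median 1.59) and from MSL1 to RAB5C, which holds KRT19, JUP and KRT15 (16 and none, median 1.57). On chromosome 2, a window from MORN2 to ERLEC1 had 14 higher in A549 and none in H1792 (median 1.66). Copy number was not measured in these files, and its part in these shifts was not tested.

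**Figure D5:**
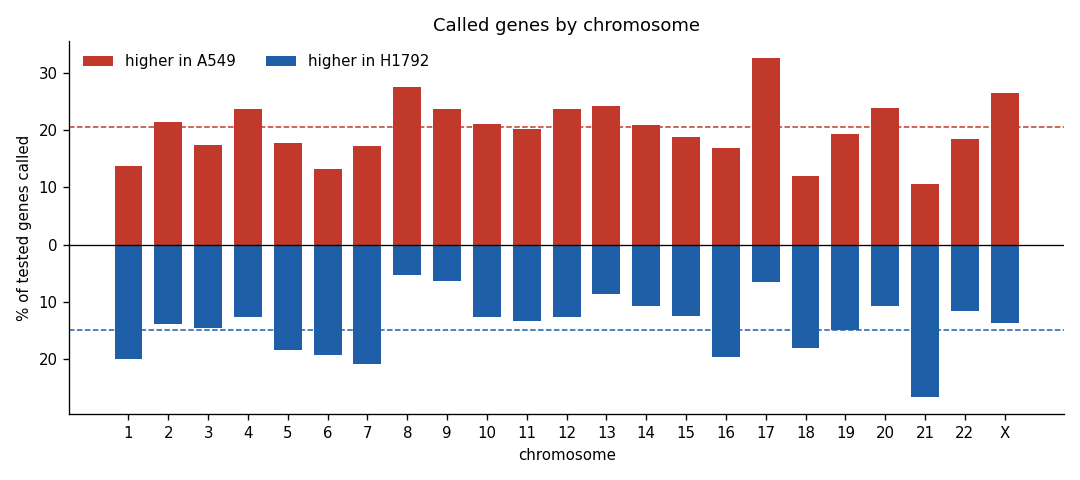
Share of tested genes on each nuclear chromosome shown that were DEGs, with genes higher in A549 drawn upwards and genes higher in H1792 drawn downwards from 0, and dashed lines at the shares over all tested genes (20.6% and 14.8%). Of these, chromosomes 17 and 8 had the highest shares for A549 and chromosomes 8, 9 and 17 the lowest shares for H1792, while chromosome 21 had the highest share for H1792.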

How the data were processed

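RNA-seq of 3 A549 and 3 H1792 samples in DMSO was used. The authors deposited estimated counts per gene, made by pseudoaligning reads to Ensembl transcripts of GRCh38 with kallisto 0.45.0 and summing transcripts. The labels give poly-A selection and paired 38 bp reads. The deposited expected counts were rounded, filtered with filterByExpr and scaled by TMM, and the lines were compared with edgeR 4.0.16 (glmQLFit and glmQLFTest, robust, no covariate) in R 4.3.3. Adjusted p-values are Benjamini-Hochberg over all 10330 genes tested. CPM uses TMM library sizes. The script was tested on simulated data. Exact permutation tests used scipy 1.17.1, annotation was GENCODE 29 and promoters came from RefSeq (GRCh38.p14). Alternatives included limma 3.58.1 and DESeq2 1.42.0. Genes were named by a fixed rule: the markers, the 10 largest folds in each direction among called genes with no overlap and a mean of at least 20 CPM in the higher line, the 5 largest CPM differences in each direction, and from each list the 3 called genes of lowest p per direction. Other list members, and genes that were not called, were named after their values were seen. Members and lists were chosen with earlier results of these data known. The rule named 1 Y-linked gene, which is not reported. Some other genes are not reported here. The RG7112 samples and 1955 protein-coding genes were not analysed here. Depth per sample was 2610822 to 5462657 counts, which limits genes of few counts.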

Additional observations from a re-analysis of the deposited data

How the results depend on the processing

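Of 164 tested genes named by the rule, 97 kept their call in every alternative run and 67 had another call in at least 1, while 2 had another sign. Those 2, MDM2 and EGFL7, were not DEGs. EGFL7 had log2 fold changes of -0.0073 with all 12 samples, -0.0612 with the replicate block and GC correction together and -0.0531 with GC correction, and -0.1394 to 0.1441 with 1 sample left out. MDM2 ran from -0.7171 to 0.0412 with 1 sample left out. The 3665 DEGs became 2126 (1165 higher in A549, 961 in H1792) where every sample had to hold at least 10 counts, a filter that tests fewer genes and removes those at 0 in a line. They became 1707 (1148 and 559) at an absolute log2 fold change over 2, and without a fold change threshold 2399 genes were higher in H1792. Leaving out 1 sample gave 3134 to 4041 DEGs (1783 to 2284 higher in A549 and 1349 to 1757 in H1792), with the most without A549 replicate 3. Of 162 called genes named by the rule, 23 lost their call without 1 sample. DESeq2 called 3966 genes and limma 3694. On GENCODE v29 genes only, an alternative chosen after seeing the data, 3287 were called.

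Replicates share numbers between the lines, but deviations of same-numbered samples correlated at 0.103, -0.076 and 0.018, so the numbers did not pair them. With the replicate as a block 3427 genes were called (1960 and 1467). Of these, 3325 were shared with the fit without the block in the same direction. With the block and GC correction together 3390 were called (1770 higher in A549 and 1620 in H1792). Of 648 list counts under the alternatives, 67 moved by over 1.5 times, 56 of these from a count of 2 or fewer. Few counts limit genes near 0.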

Other observations

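Cytosolic ribosomal protein genes, a list chosen after the values were seen, were shifted towards H1792. Of 81 tested genes, 24 were higher in H1792 and 3 in A549, with a median log2 fold change of -0.71 against 0.08 over all tested genes. On chromosome 16, a window of 25 tested genes from SLC7A5 to FANCA had 15 genes higher in H1792 and none in A549 (median -1.17), and on chromosome 9 a window from CBWD1 to RPS6 had 14 higher in A549 and none in H1792 (median 1.54).

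Of the protein-coding genes in GENCODE v29, 1955 were not analysed here, and 90.2% of these have 1 annotated transcript, against 5.63% of the 17996 that were analysed. Among the tested rows, 499 had counts identical to those of another row, and 216 of these rows were DEGs. None of the genes named by the rule was among them.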
